A study of Mus musculus with 56 samples.

Results

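The 10 genes described here make or regulate MHC class I, the cell surface complex that shows peptides from inside a cell to CD8+ T cells. They were taken as a named list from a table of 24034 mouse genes, and all 10 were found there. They are the light chain gene B2m, the heavy chain genes H2-K1, H2-D1, H2-Q4, H2-Q7 and H2-T23, the peptide loading genes Tap1, Tap2 and Tapbp, and the regulator Nlrc5. All 10 passed the filter on low values, at least 1 TPM in at least 4 libraries, in every comparison. TPM divides the reads of a gene by its length and scales each library to 1000000, so levels (transcripts at a fixed library total) can be set side by side between genes.

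The study sequenced bulk RNA of liver tumours and healthy livers of C57BL/6 mice. Tumours were raised by hydrodynamic tail vein injection, which forces plasmid DNA into hepatocytes, and every tumour title names MYC and NICD, the intracellular domain that carries the NOTCH1 signal. The lucOS construct joins luciferase to model T cell antigens, while luc carries luciferase alone. There were 6 lucOS and 6 luc tumours whose titles give no sex, called lucOS and luc tumours here, 4 lucOS and 4 luc tumours whose titles say males, and 6 healthy livers. Of the healthy livers, 3 have AL and 3 have PM animal numbers in their titles. The labels give the injection method for the healthy livers too and do not say what, if anything, was injected there. Ages and pooling of animals are not stated in the labels. No label says that replicates were separate cultures or litters, so p-values measure the spread between these libraries, each of which has its own animal number in the title. The male label coincides with 1 series of animal numbers, so sex, animal series and any separate handling cannot be told apart. Libraries listed 16921 to 19172 genes above 0 TPM, and TPM keeps no read depth, so depth is unknown. Hepatocyte markers, 7 of 7 in the table, summed to 239 to 13621 TPM in the 20 tumours against 106280 to 152720 TPM in healthy liver, so the labelled liver tissue held its defining markers and the tumours held little of them.

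A class I molecule is a heavy chain bound to beta-2 microglobulin, and it leaves the endoplasmic reticulum only once a peptide sits in its groove. TAP1 and TAP2 form the pump that carries peptides from the cytosol into the endoplasmic reticulum, and tapasin, made by Tapbp, bridges the pump and the empty heavy chain and helps to select peptides. H2-K1 and H2-D1 are the classical heavy chains of this strain, while H2-Q4, H2-Q7 and H2-T23 are class Ib chains, the last of which makes Qa-1, a ligand of inhibitory receptors on NK cells and T cells. NLRC5 is a transactivator that binds class I promoters through factors on the X and Y boxes, and interferon gamma is a strong inducer of it and of most of the other genes.

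In healthy liver the light chain stood highest, at 2741 ± 521 TPM (SD, n = 6) for B2m. H2-K1 followed at 1534 ± 165 TPM, then H2-D1 at 625.1 ± 51.1 TPM and H2-T23 at 320 ± 29.5 TPM (SD, n = 6 each). The libraries of these 4 genes did not overlap between neighbours in that order. B2m differed by animal series, with 2070 to 2539 TPM in AL numbered livers and 2934 to 3314 TPM in PM numbered ones. H2-K1 split the other way, with 1487 to 1795 TPM against 1342 to 1466 TPM. The SDs of B2m and H2-K1 therefore include a difference between series. Tapbp at 64.7 TPM, H2-Q7 at 58.6 TPM and H2-Q4 at 48.3 TPM came next, and their ranges overlapped. Tap2 at 21.4 TPM, Tap1 at 10.4 TPM and Nlrc5 at 5.77 TPM closed the order without overlap. In tumours the order changed at the top and the middle. H2-K1 (466 TPM, mean of the 4 group means) and B2m (461 TPM) were level there, above H2-D1 (352 TPM). H2-Q4, Tapbp and Tap2 lay at 61.9, 61.4 and 56.8 TPM, and Tap1, H2-T23 and H2-Q7 at 38.6, 37.7 and 34.9 TPM. Nlrc5 was lowest at 3.90 TPM. Every pair of neighbours in the tumour order overlapped in range over the 20 tumours.

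**Figure D1:**
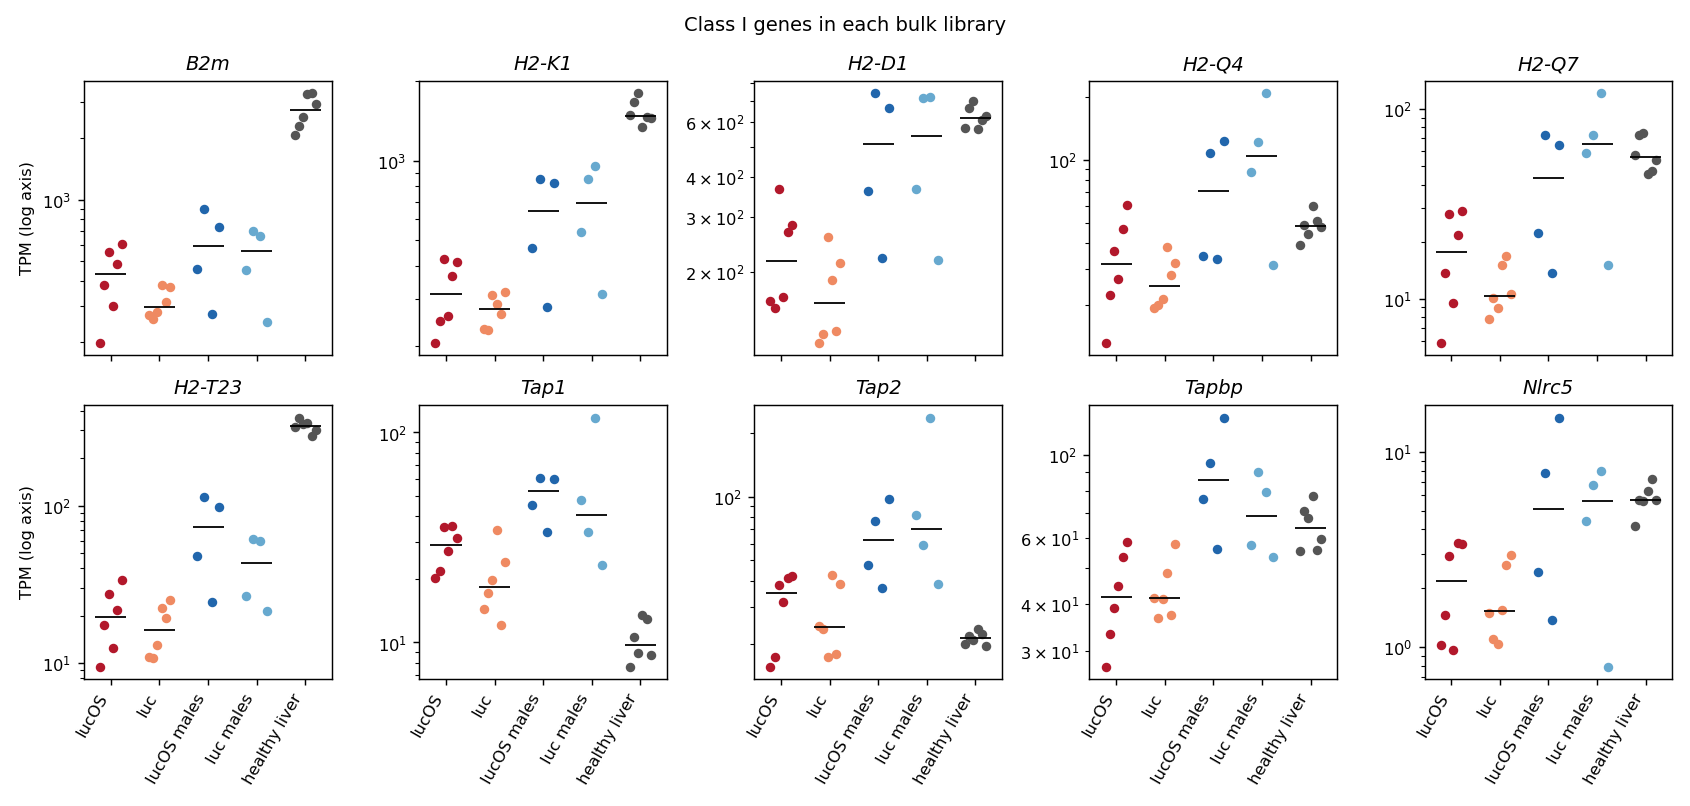
TPM of each class I gene in every bulk library, on a log axis that differs between panels. Points are libraries and bars are group medians, for 6 lucOS, 6 luc, 4 lucOS males, 4 luc males and 6 healthy livers. B2m, H2-K1 and H2-T23 lie lower in each of the 20 tumours than in any healthy liver, while Tap1 lies above most healthy livers.

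Some class I genes have near-identical copies, and the table shows where reads may have been shared. The deposited values of H2-Q9 were 1.01 times those of H2-Q7 in all 26 libraries, to 3 significant digits, so the H2-Q7 level cannot be told from that of H2-Q9. In the same way H2-Q8 was 0.970 to 0.971 times H2-Q6 in all 26 libraries. The row H2-L, a name of a class I gene of other mouse strains, held 1.27 to 1.53 times the TPM of H2-D1, so reads of H2-D1 may be divided between those rows. Levels of H2-Q7 and H2-D1 are therefore uncertain as levels of single genes.

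The heavy chain and light chain promoters are shown because these genes varied together across tumours, as described further on. Of the 10 genes, 8 had a promoter of 300 bases in the RefSeq set for GRCm38.p6, the assembly also called mm10, all but Tap2 and Nlrc5. Motifs searched on both strands were GGGNNTTCC for NF-kappa B, GAAANNGAA and GAANNGAAA for interferon response elements, TGACG for the X2 element and CCAAT for the Y box. The form GAANNGAAA was added after the sequences had been read. Each line below gives 130 bases, 5′ to 3′ on the strand of the gene, from the first NF-kappa B or interferon response match, with matches in capitals.
H2-K1: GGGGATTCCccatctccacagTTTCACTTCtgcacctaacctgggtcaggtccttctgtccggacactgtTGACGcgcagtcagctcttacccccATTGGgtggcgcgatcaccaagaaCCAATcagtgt
H2-D1: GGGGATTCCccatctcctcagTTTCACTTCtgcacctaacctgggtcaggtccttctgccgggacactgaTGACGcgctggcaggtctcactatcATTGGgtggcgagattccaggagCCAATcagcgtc
H2-Q4: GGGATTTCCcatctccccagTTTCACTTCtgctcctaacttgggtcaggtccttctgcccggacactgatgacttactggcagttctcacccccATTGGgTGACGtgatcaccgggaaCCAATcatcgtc
H2-Q7: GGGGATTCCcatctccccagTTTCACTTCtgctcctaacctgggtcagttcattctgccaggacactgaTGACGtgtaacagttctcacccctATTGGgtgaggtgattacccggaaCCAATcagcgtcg
H2-T23: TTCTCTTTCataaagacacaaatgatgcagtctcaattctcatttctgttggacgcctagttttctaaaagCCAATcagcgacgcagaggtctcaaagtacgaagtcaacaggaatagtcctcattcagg
B2m: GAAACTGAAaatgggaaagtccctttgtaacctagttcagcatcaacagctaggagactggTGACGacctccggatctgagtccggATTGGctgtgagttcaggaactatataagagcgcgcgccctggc

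The stretches lie at chr17:34000329-34000458 on the minus strand for H2-K1, chr17:35262923-35263052 on the plus strand for H2-D1, chr17:35379444-35379573 on the plus strand for H2-Q4 and chr17:35439022-35439151 on the plus strand for H2-Q7. Those of H2-T23 and B2m lie at chr17:36032695-36032824 on the minus strand and chr2:122147548-122147677 on the plus strand. RefSeq lists 2 promoters for H2-K1, and the first was used. The 4 stretches with an NF-kappa B match shared the same order of motifs up to the interferon element, which began 21 bases after the start of the NF-kappa B match in H2-K1 and H2-D1, and 20 bases after it in H2-Q4 and H2-Q7. The X2 element followed the interferon element by 49 bases in H2-K1, H2-D1 and H2-Q7. H2-Q4 has no match at that place, and its TGACG lies just after the first Y box. In B2m the X2 element came 61 bases after the interferon element, and the Y box 25 bases after the X2 element, the same X2 to Y distance as in H2-K1 and H2-D1. H2-T23 had neither an NF-kappa B nor an X2 match in these letters. Between 83.1% (H2-K1 and H2-Q7) and 87.7% (H2-Q4 and H2-Q7) of the 130 bases were identical within those 4 heavy chains in pairwise global alignments, and 47.7% to 52.3% between H2-T23 and each of them.

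Over the 27025 RefSeq promoters searched, 5.72% held the NF-kappa B letters, against 4 of the 8 class I promoters. Those 4, of H2-K1, H2-D1, H2-Q4 and H2-Q7, had stretches 83.1% to 87.7% identical, so they are not 4 separate promoters. The interferon form GAAANNGAA was in 8.57% of all promoters and in 2 of the 8, B2m and H2-T23. The form GAANNGAAA, added after these promoters were read, was in 7.56% and in 4 of the 8, so its count is a description of letters taken from them. The X2 element was in 21.0% of all promoters and in 6 of the 8, and the Y box in 37.9% and in 8 of the 8. The same 4 similar promoters are part of the GAANNGAAA, X2 and Y box counts. These are letter matches in a window, not measured binding.

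Tumours held far less of the light chain and of the heavy chains H2-K1 and H2-T23 than healthy liver, and more of the peptide pump as deposited. H2-D1 and H2-Q7 were lower by less and overlapped healthy liver, and H2-Q4 was not called. Of the 10 genes, 6 were lower and 2 higher in tumours (limma, p under 0.05 after Benjamini-Hochberg adjustment over the 15767 genes tested). This has to be read against the background, since 88.7% of all genes tested were called, 71.8% higher and 16.9% lower. The median log2 fold change was -0.93 over the 10 genes and 1.03 over all genes tested. In bulk tissue, fewer cells of a type and less RNA per cell cannot be told apart.

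B2m ranged over 200, 383 and 905 TPM (lowest, median and highest of 20 tumours) against 2070, 2737 and 3314 TPM in 6 healthy livers. No tumour reached the lowest healthy liver, and B2m fell by 2.68 ± 0.23 on the log2(TPM + 1) scale (SE, limma adjusted p = 6.34e-11). H2-T23, the Qa-1 heavy chain, had the largest difference of the 10, with 9.49, 23.4 and 113 TPM in tumours against 276, 323 and 361 TPM in healthy livers. These groups did not overlap either, and the log2 fold change was -3.41 ± 0.28 (SE, adjusted p = 2.33e-11). H2-K1 had 205, 317 and 957 TPM in tumours and 1342, 1477 and 1795 TPM in healthy livers, again without overlap, a log2 fold change of -1.90 ± 0.21 (SE, adjusted p = 6.46e-09). Of all genes tested, 9.83% were lower in tumours with no overlap of the libraries, and B2m, H2-K1 and H2-T23 were among them. The libraries of the other 7 class I genes overlapped between tumours and healthy livers.

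H2-D1, the other classical heavy chain, had 119, 240.2 and 740 TPM in tumours against 570.1, 620.3 and 701 TPM in healthy livers, a log2 fold change of -1.09 ± 0.25 (SE, adjusted p = 2.64e-04). The highest male tumours exceeded every healthy liver, while the tumours without a sex label all lay below. H2-Q7, read together with H2-Q9, fell by 1.23 ± 0.35 on the log2 scale (SE, adjusted p = 0.00251), and its tumour values of 5.87, 15.9 and 121 TPM spanned the healthy values of 45.5, 55.6 and 75.0 TPM. That call was lost with the 3 PM numbered healthy livers alone (-0.99, adjusted p = 0.0704), and with male tumours alone, with adjusted p of 3.77e-07 to 0.39 over all alternatives. Nlrc5, the transactivator, fell by 0.77 ± 0.32 on the log2 scale (SE, adjusted p = 0.0275), with 0.789, 2.52 and 14.96 TPM in tumours against 4.16, 5.66 and 7.23 TPM in healthy livers. That call was lost without healthy liver replicate 4 or replicate 5, with the 3 AL or the 3 PM numbered healthy livers alone, and without small RNA genes, with adjusted p of 5.17e-07 to 0.511 over all alternatives. H2-Q4 did not pass (log2 fold change -0.05, adjusted p = 0.886), nor did Tapbp (-0.17, adjusted p = 0.291).

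Tap1 and Tap2, the pump subunits, went the other way in the deposited values. Tap1 had 12.2, 32.4 and 118 TPM in tumours against 7.66, 9.77 and 13.5 TPM in healthy livers, a log2 fold change of 1.61 ± 0.23 (SE, adjusted p = 5.57e-07). The lowest tumour, luc replicate 5, lay below the 2 highest healthy livers, and the other 19 tumours lay above all 6. Tap2 had 15.6, 38.5 and 237 TPM against 19.5, 21.4 and 23.5 TPM in healthy livers, a log2 fold change of 1.01 ± 0.28 (SE, adjusted p = 0.00162), about the shift of the median gene. With libraries scaled by their median ratio, the median gene lay at 0.08 in place of 1.03, Tap1 was 0.39 (adjusted p = 0.117) and Tap2 reversed to -0.25 (adjusted p = 0.406). In that scaling none of the 10 was higher and 8 were lower, H2-Q4 (-1.32) and Tapbp (-1.45) included, while of all genes 6832 were higher and 6354 lower, against 11328 and 2658 as deposited. Quantile normalization left 1 of the 10 higher, Tap1 (0.56), and 7 lower, with 6772 genes higher and 5953 lower.

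**Figure D2:**
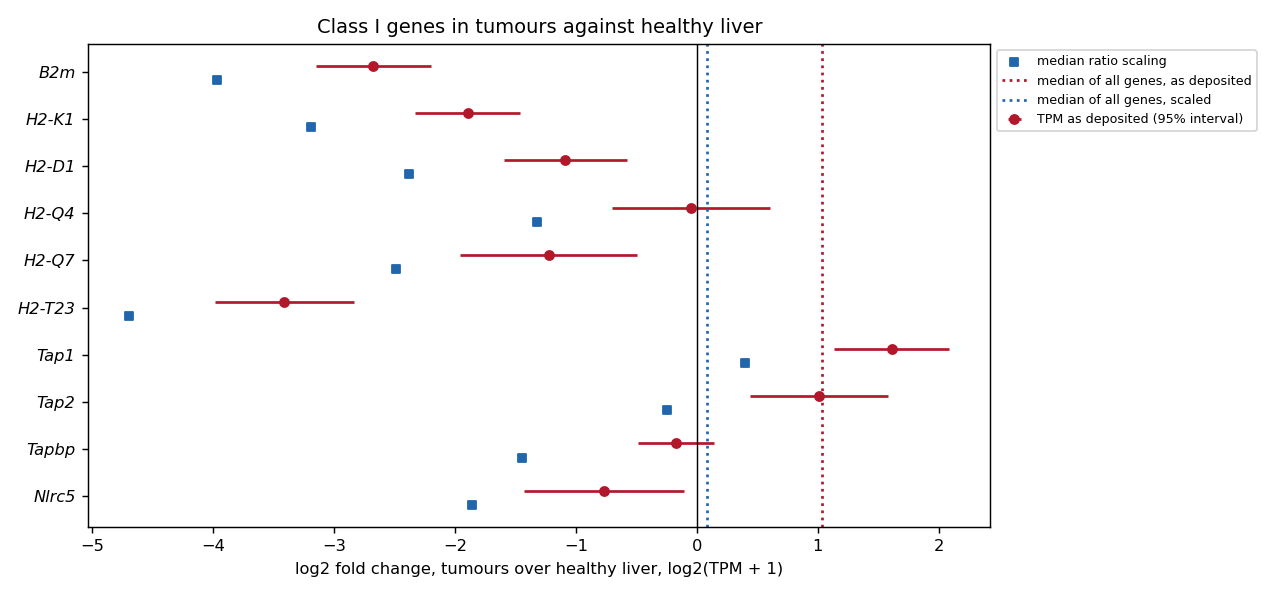
Log2 fold change of each class I gene, tumours over healthy liver, for TPM as deposited (circles, with 95% intervals) and after median ratio scaling (squares, with no interval drawn). Dotted lines mark the median of all genes tested, 1.03 as deposited and 0.08 scaled. Only Tap1 and Tap2 lie right of 0 as deposited, and of the squares only that of Tap1 does (0.39, adjusted p = 0.117).

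The tumours with and without a male label were also set against healthy liver one at a time. The tumours without a sex label had 8 of the 10 genes lower and 1, Tap1 (1.11), higher, where 89.7% of genes were called, 71.2% higher and 18.5% lower. The male tumours had 3 of the 10 lower and 2 higher, where 88% were called, 71.9% higher and 16% lower. In male tumours B2m (-2.41), H2-K1 (-1.40) and H2-T23 (-2.71) were lower, and H2-D1 (-0.48), H2-Q7 (-0.41) and Nlrc5 (-0.30) did not pass. In tumours without a sex label H2-Q4 (-0.75) and Tapbp (-0.59) were also lower, and Tap2 (0.34) did not pass. These 2 comparisons share the healthy livers.

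The proportions of the class I chains differed between tumours and healthy liver as well. Of the summed TPM of the 5 heavy chains, H2-T23 took 3.71% in tumours (mean of the 4 groups, range 2.13% to 6.01% over 20) against 12.4% in healthy liver (11.2% to 14.2%, n = 6). H2-D1 took 36.4% (28.4% to 42.2%) in tumours against 24.2% (23.2% to 25.3%) in healthy liver, and H2-Q4 took 5.92% (3.35% to 10.1%) against 1.89% (1.49% to 2.55%). These 3 shares did not overlap between tumours and healthy livers. H2-K1 took the largest share everywhere, 50.8% in tumours and 59.3% in healthy liver, and its ranges overlapped. Such shares show unequal change of the chains, and those of H2-D1 and H2-Q7 carry the uncertainty on shared reads.

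B2m TPM per heavy chain TPM, the light chain over the sum of 5 heavy chains, was 0.668 ± 0.113 in lucOS, 0.636 ± 0.092 in luc (SD, n = 6 each), 0.466 ± 0.035 in lucOS males and 0.386 ± 0.046 in luc males (SD, n = 4 each), against 1.07 ± 0.27 in healthy liver (SD, n = 6). Tumours ranged from 0.321 to 0.840 and healthy livers from 0.817 to 1.40, and 1 tumour, lucOS replicate 2, lay above the lowest healthy liver. The healthy ratio differed by animal series, lower with AL than with PM numbers. The 3 AL numbered livers held 2070 to 2539 TPM of B2m with heavy chain sums of 2472 to 2946 TPM. The 3 PM numbered livers held 2934 to 3314 TPM with sums of 2352 to 2484.5 TPM. The healthy SD thus includes that series difference, and the gap to tumours depends on the series. Tap1 TPM per heavy chain TPM was 0.0426 in tumours (0.0185 to 0.0620) against 0.00407 in healthy liver (0.00304 to 0.00575), without overlap. A single scaling factor per library leaves these ratios as they are, while quantile normalization would change them.

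Other class I and class I-like chains followed the same pattern in part. Of 14 tested, 3 were higher and 8 lower in tumours, where 71.8% of all genes were higher and 16.9% lower. Their median log2 fold change was -0.66, against 1.03 for all genes. H2-Q10, a secreted class I chain of hepatocytes, averaged 70.3 TPM in tumours against 2422 ± 97.5 TPM in healthy liver (SD, n = 6), a log2 fold change of -5.86. Cd1d1, which presents lipids to NKT cells, fell by 4.66 on the log2 scale to 11.1 TPM in tumours, against 287 TPM in healthy liver, and H2-Q1 fell by 1.97. H2-T3 and H2-M10.2 did not pass the filter on low values.

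Genes that act before and beside peptide loading are set here against all genes, of which 88.7% were called, 71.8% higher and 16.9% lower. Of 10 tested chaperone and trimming genes of the endoplasmic reticulum, 3 were higher and 2 lower (median 0.00), so the count lower is near the share of all genes. Erap1, which trims peptides to length, fell by 1.42 ± 0.16 on the log2 scale (SE, adjusted p = 5.98e-09). Canx, the chaperone calnexin, was higher by 0.54 and Sec61a1 of the translocation channel by 0.49. Of 5 immunoproteasome genes 0 were higher and 2 lower, Psmb10 (-0.93) and the activator subunit Psme1 (-0.23), while the catalytic subunit Psmb8 had -0.52 (adjusted p = 0.14).

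Transcription factors of class I promoters had 12 of 17 higher and 2 lower with a median of 1.17, close to the 71.8% higher and the median of 1.03 of all genes. They included the Y box factors Nfya (2.76) and Nfyc (1.35) and Rfxank (1.98), a subunit of the X box complex. Receptors and kinases of interferon and TNF had 8 of 10 higher and 1 lower, near the 71.8% of all genes, with a median of 0.65 below the 1.03 of all genes, among them Ifngr2 (2.02), Ifnar1 (0.72) and the feedback inhibitor Socs1 (1.53). Interferon-induced genes outside class I went the other way, with 0 of 20 higher and 12 lower (median -0.95), where 16.9% of all genes were lower. Among the lower were the GTPases Iigp1 (-4.43) and Igtp (-2.34) and the factor Irf7 (-2.21). MHC class II genes, which serve CD4+ T cells, had 7 of 10 higher and 0 lower (median 1.05), about the 71.8% and 1.03 of all genes, among them H2-Ab1 (2.19), H2-DMb2 (1.33) and H2-DMb1 (1.53).

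Class I shows antigens to CD8+ T cells, and the comparison of lucOS with luc tumours asks whether class I RNA differed with the model T cell antigens of lucOS. None of the 10 genes was called in any antigen comparison. In tumours without a sex label 0 of 15453 genes tested were called at all (0% background). There 385 genes had an unadjusted p under 0.05 and 0 of the 10 were among them. Between male tumours 54 genes were called (0.349%), and over both sex labels 3 genes (0.0194%). Those counts rest on single libraries, with 0 to 578 genes called between male tumours and 0 to 16 over both labels when 1 library was left out, the fewest and the most in males without lucOS males replicate 2 and without luc males replicate 4. All 10 genes overlapped between lucOS and luc libraries within each sex label, where 0.11% of genes did not overlap in tumours without a sex label and 7% did not in males.

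B2m had 200, 433 and 605 TPM (lowest, median and highest) in 6 lucOS tumours against 261, 298 and 383 TPM in 6 luc tumours. Its male tumours had 456, 905, 275 and 733 TPM with lucOS against 451, 701, 664 and 251 TPM with luc. 3 lucOS tumours lay above all luc tumours and 1 below, and the male values interleaved. Over both sex labels the log2 difference was 0.25 (95% interval -0.26 to 0.77, limma adjusted p = 0.735).

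H2-K1 had 205, 313 and 425 TPM in lucOS tumours against 228, 276 and 319 TPM in luc tumours. In males it had 469, 854, 280 and 822 TPM with lucOS, against 538, 849, 957 and 315 TPM with luc. Of the lucOS tumours 3 lay above every luc tumour and 1 below, the male ranges overlapped, and the log2 difference over both labels was 0.02 (95% interval -0.46 to 0.50). H2-D1 had 154, 217 and 366 TPM in lucOS tumours against 119, 159 and 259 TPM in luc tumours, and 361, 740, 221 and 663 TPM in lucOS males against 367, 717, 723 and 218 TPM in luc males. For this chain the difference was 0.20 (95% interval -0.38 to 0.77).

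Among the class Ib chains H2-T23 had the largest difference over both labels, 0.43 (95% interval -0.22 to 1.07, adjusted p = 0.621). It had 9.49, 19.5 and 33.7 TPM in lucOS tumours against 10.8, 16.2 and 25.3 TPM in luc tumours. In males it had 47.9, 113, 24.4 and 98.0 TPM with lucOS against 26.8, 61.5, 59.8 and 21.4 TPM with luc. 2 lucOS males lay above every luc male, and the other 2 lay within their range. H2-Q4 and H2-Q7 had opposite signs by label, as did H2-K1, H2-D1, Tap2 and Tapbp outside the class Ib chains. H2-Q7 had 5.87, 17.6 and 28.9 TPM in lucOS tumours against 7.84, 10.4 and 16.7 TPM in luc tumours, a difference of 0.45 (95% interval -0.57 to 1.47). In males it had 22.1, 72.8, 13.6 and 64.7 TPM with lucOS against 58.6, 72.9, 121 and 15.1 TPM with luc, a difference of -0.60 (95% interval -1.85 to 0.65).

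H2-Q4 had 13.3, 31.7 and 60.4 TPM in lucOS tumours against 19.4, 24.7 and 38.0 TPM in luc tumours, and 34.3, 108, 33.4 and 123 TPM in lucOS males against 87.6, 122, 208 and 31.3 TPM in luc males. Its difference over both labels was -0.14 (95% interval -0.87 to 0.58). The test of whether the antigen difference differs by male label called 0 of all genes, 1842 had an unadjusted p under 0.05, and 0 of the 10 genes were among these. For H2-Q7 that interaction was -1.05 (95% interval -2.66 to 0.57, adjusted p = 0.587).

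Of the loading genes, Tap1 had 20.2, 29.2 and 35.9 TPM in lucOS tumours against 12.2, 18.5 and 34.2 TPM in luc tumours, the largest difference of the 10 without a male label, 0.52 (95% interval -0.13 to 1.17, adjusted p = 0.997). Its male tumours had 45.2, 60.9, 33.4 and 59.9 TPM with lucOS against 47.7, 33.7, 118 and 23.5 TPM with luc. The luc males spanned the whole range of the lucOS males, and the difference over both labels was 0.30 (95% interval -0.21 to 0.81). Tap2, its partner in the pump, had 15.6, 34.9 and 42.3 TPM in lucOS tumours against 17.4, 24.04 and 42.5 TPM in luc tumours. In males Tap2 had 47.5, 76.6, 37.1 and 97.1 TPM with lucOS against 82.2, 58.7, 237 and 38.5 TPM with luc. One library, luc males replicate 3, was far above the rest, and the difference over both labels was -0.14 (95% interval -0.78 to 0.50).

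Tapbp, the tapasin gene, had 27.3, 41.9 and 58.7 TPM in lucOS tumours against 36.9, 41.5 and 58.1 TPM in luc tumours. Tapbp in males had 76.5, 95.3, 56.3 and 126 TPM with lucOS against 57.6, 89.9, 79.8 and 53.6 TPM with luc. Its interval over both labels was the narrowest of the 10, 0.12 (95% interval -0.22 to 0.45). Nlrc5 had 0.958, 2.18 and 3.42 TPM in lucOS tumours against 1.04, 1.52 and 2.96 TPM in luc tumours, and 2.41, 7.76, 1.37 and 14.96 TPM in lucOS males against 4.43, 6.76, 7.97 and 0.789 TPM in luc males. The regulator differed by 0.17 over both labels (95% interval -0.56 to 0.90). Over both labels the upper bounds of the 10 intervals ran from 0.45 for Tapbp to 1.07 for H2-T23, so a p that missed the threshold does not show equal levels.

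**Figure D3:**
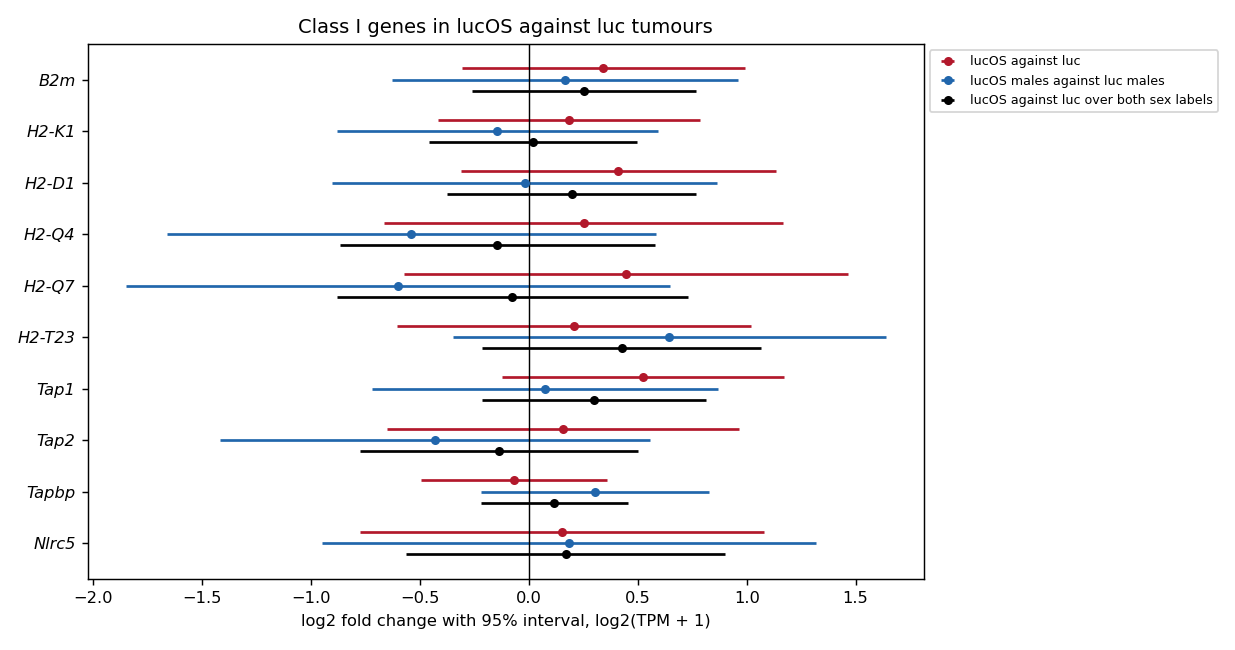
Log2 fold change of each class I gene in lucOS over luc tumours with its 95% interval, in tumours without a sex label, in males and over both labels. All intervals include 0, and those of males are the widest for each gene.

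Over the list, signs and medians were as follows. In tumours without a sex label 9 of the 10 differences were positive, with a median of 0.23 against 0.01 for all genes tested. In males 5 of 10 were positive (median 0.03 against 0.08), and over both labels 7 of 10 (median 0.14 against 0.04). Of all 15453 genes tested, 8285 were positive without a sex label, 9326 in males and 9377 over both labels. Within the animal series AL51, of 2 lucOS and 3 luc tumours, 6 of the 10 differences were positive and 4 negative, from -0.39 for Tapbp to 0.30 for Tap1. In series AL54, of 4 lucOS and 3 luc tumours, all 10 differences were positive, from 0.02 for H2-T23 to 0.58 for H2-D1. No test was run within these series. All 10 genes had higher mean TPM in AL54 than in AL51, with lucOS and with luc, and AL54 gave more of the lucOS than of the luc tumours. With the animal series as a term, the median of the 10 differences was 0.11 without a sex label, in place of 0.23. Over both labels it was 0.10, in place of 0.14.

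Genes of the other lists were not called over both labels either. The counts of positive differences below stand beside 9377 of all 15453 genes tested, with a median of 0.04. The interferon-induced genes were all 20 positive with a median of 0.63, among them Cxcl9, a chemokine that draws T cells (1.46, adjusted p = 0.169), and Oas1a (0.89, adjusted p = 0.25). Class II genes were all 10 positive with a median of 0.79, among them H2-DMb1 (1.08, adjusted p = 0.25) and H2-DMa (0.75, adjusted p = 0.271). The other class I chains had 11 of 14 positive (median 0.23), with H2-M2 at 0.80 (adjusted p = 0.343) and H2-T24 at 0.28 (adjusted p = 0.447). The tapasin relative Tapbpl, at 0.57 (adjusted p = 0.24), and Uggt1, at 0.24 (adjusted p = 0.348), had the smallest p of the chaperone and trimming genes, of which 10 of 10 were positive (median 0.15).

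Psmb10 at 0.30 (adjusted p = 0.298) and Psme1 at -0.09 (adjusted p = 0.684) were the immunoproteasome genes with the smallest p. Of the transcription factors 13 of 17 were positive (median 0.08), among them the class II transactivator Ciita (0.64, adjusted p = 0.284). Among receptors and kinases 6 of 10 were positive (median 0.01), with Socs3 at -0.55 (adjusted p = 0.323) and Tyk2 at 0.17 (adjusted p = 0.427). T cell markers, 8 of 9 in the table and none at 0 throughout, summed to 3.74 to 18.8 TPM in lucOS and 1.95 to 13.02 TPM in luc tumours, and to 6.45 to 25.1 TPM in lucOS males and 5.24 to 10.8 TPM in luc males, and their part in any class I difference was not tested.

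Part of the class I genes were higher in tumours labelled males than in tumours without a sex label. With luc, 6 of the 10 genes were higher in males and 0 lower, where 16.9% of all 15453 genes tested were called, 8.94% higher and 7.97% lower. All 10 differences were positive, with a median of 1.21 against 0.05 for all genes, of which 8444 were positive. With lucOS, 2 of the 10 were higher and 0 lower, where 24.4% of genes were called, 15.2% higher and 9.29% lower, so that count is near the share of all genes. Again all 10 were positive, with a median of 1.01 against 0.13 for all genes, of which 9447 were positive. The split of all calls turned with the scaling. With lucOS 2342 genes were higher and 1436 lower as deposited, against 1450 and 2117 with median ratio scaling and 1299 and 2220 with quantile normalization, while 2 of the 10 were higher and 0 lower in each. With luc 1382 genes were higher and 1231 lower as deposited, against 1266 and 1330 with median ratio scaling and 1097 and 1573 with quantile normalization, where 7 and 6 of the 10 were higher and 0 lower. The interaction described above tests whether these 2 male differences differ, and none of the 10 was called there.

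With luc, H2-Q7 had the largest male difference, 2.16 ± 0.54 (SE, limma adjusted p = 0.0113), followed by H2-Q4 at 1.80 ± 0.49 (adjusted p = 0.0174) and Tap2 at 1.62 ± 0.43 (adjusted p = 0.0152). H2-D1 (1.44, adjusted p = 0.0158), Tap1 (1.22, adjusted p = 0.0211) and H2-K1 (1.16, adjusted p = 0.0188) were also higher. H2-T23 (1.20, adjusted p = 0.0637), Tapbp (0.65, adjusted p = 0.0576), Nlrc5 (0.92, adjusted p = 0.21) and B2m (0.63, adjusted p = 0.223) did not pass. Luc males replicate 4 lay within or below the range of the luc tumours for all 10 genes. The other 3 luc males lay above every luc tumour for 8 of the genes, the exceptions being replicate 2 for Tap1 and replicate 1 for Tapbp. The libraries of all 10 genes thus overlapped between luc males and luc tumours, while 13.4% of all genes tested did not overlap. Without luc males replicate 3 none of the 10 was called, and without luc males replicate 2 the calls were 3 of the 10, H2-Q7, Tap1 and Tap2. Without luc males replicate 4, the calls were 9 of the 10, all but B2m. Tap1 also lost its call with the luc males and luc tumours fitted alone.

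With lucOS, Tapbp (1.02 ± 0.23, SE, adjusted p = 0.00427) and H2-T23 (1.64 ± 0.43, SE, adjusted p = 0.0118) were higher in males. Tapbp is higher by this test in all of the alternatives run. H2-T23 lost its call without lucOS males replicate 2 or replicate 4 (adjusted p = 0.058 and 0.0588), where 1 of the 10 was left. Without lucOS males replicate 3, the lowest of its group, 7 of the 10 were called. Without luc males replicate 3 or 4, which enter only through the shared spread, 4 were called. The 8 others had differences of 0.45 (B2m) to 1.11 (H2-Q7), and the libraries of all 10 overlapped between the groups, while 15.6% of all genes tested did not overlap.

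Summed markers of several other cell types reached higher values in the male groups too, though not those of every list. The 4 leukocyte genes, Ptprc, Coro1a, Laptm5 and Cd53, summed to 75.9 to 131 TPM in lucOS males against 22.9 to 72.3 TPM in lucOS tumours, and to 37.4 to 144 TPM in luc males against 28.8 to 62.7 TPM in luc tumours. B cell markers, 5 of 5 in the table and none at 0 throughout, summed to 12.8 to 31.7 TPM in lucOS males against 0.73 to 2.39 TPM in lucOS tumours. In luc males they summed to 10.9 to 21.9 TPM against 0.592 to 1.46 TPM in luc tumours. Markers of macrophages and monocytes, 8 of 8 in the table, summed to 657 to 1357 TPM in lucOS males against 247 to 805 TPM in lucOS tumours, and to 325 to 1100 TPM in luc males against 303 to 645 TPM in luc tumours. Endothelial markers, 7 of 7, summed to 171 to 309 TPM in lucOS males against 82.9 to 183 TPM in lucOS tumours, and to 210 to 345 TPM in luc males against 94.2 to 210 TPM in luc tumours. Stellate cell and fibroblast markers, 6 of 6, summed to 465 to 842 TPM in lucOS males against 265 to 499.7 TPM in lucOS tumours, and to 411 to 751 TPM in luc males against 285 to 505 TPM in luc tumours. Hepatocyte markers summed to 895 to 13621 TPM in lucOS males against 376 to 4396 TPM in lucOS tumours, and to 425 to 6219 TPM in luc males against 239 to 5217 TPM in luc tumours. Dendritic cell markers reached less in lucOS males, 12.5 to 21.1 TPM, than in lucOS tumours, 11.4 to 42.8 TPM, and ranged over 6.81 to 37.2 TPM in luc males against 8.96 to 31.3 TPM in luc tumours. The highest T cell sum was lower in luc males than in luc tumours (10.8 against 13.02 TPM). The median T cell sum was higher in luc males (8.32 against 3.75 TPM). NK cell markers, 5 of 5, summed to 3.26 to 7.41 TPM in lucOS males against 0.411 to 5.44 TPM in lucOS tumours. In luc males they summed to 1.59 to 2.96 TPM against 0.482 to 1.73 TPM in luc tumours. Kupffer cell markers, 5 of 5, summed to 37.7 to 143 TPM in lucOS males against 6.97 to 69.9 TPM in lucOS tumours. In luc males their median was 17.8 TPM, against 19.9 TPM in luc tumours, and luc males replicate 2 reached 473 TPM. Biliary markers, 5 of 5, summed to 362 to 2358 TPM in lucOS males against 356 to 1150 TPM in lucOS tumours. In luc males they summed to 616 to 1625 TPM against 480 to 887 TPM in luc tumours. The part of these cell types in the class I differences was not tested.

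The same few libraries were high or low for nearly every class I gene. Among the 20 tumours, luc males replicate 3, lucOS males replicate 2 and lucOS males replicate 4 each held 10 of the 10 genes among the 4 highest values, and luc males replicate 2 held 8. The lowest were lucOS replicate 1, with 8 of the 10 among the 4 lowest values, and luc replicates 1 and 2, with 7 each. These orders are over all 20 tumours, so they include the differences between male and other tumours and between animal series. The AL51 tumours, lucOS replicates 1 and 2 and luc replicates 1 to 3, stood lowest, with mean ranks of 15.6 to 19. All 10 genes had lower mean TPM in AL51 than in AL54, with lucOS and with luc. For B2m these means were 291 against 485 TPM with lucOS and 271 against 357 TPM with luc. With values centred within each group the genes also varied together, as given below, but this leaves the AL51 to AL54 difference in place. The 10 genes are therefore not 10 separate observations of a group.

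**Figure D4:**
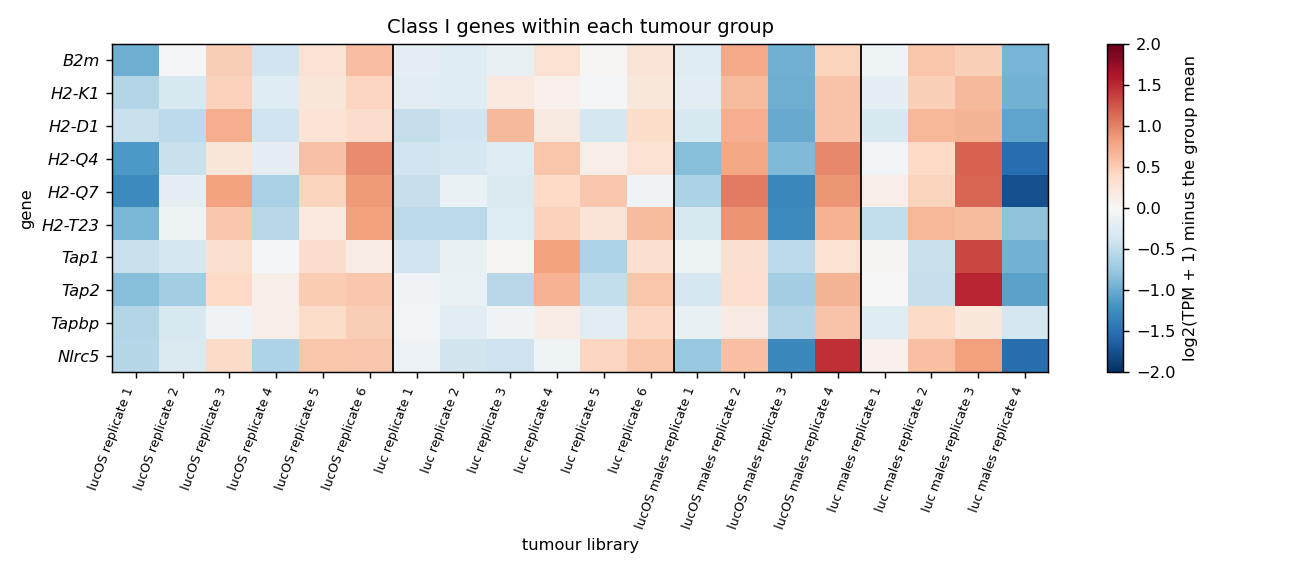
Log2(TPM + 1) of each class I gene minus the mean of its group, for the 20 tumour libraries, with lines between lucOS, luc, lucOS males and luc males. Columns are mostly of 1 colour, as in lucOS replicate 1 (low) and lucOS males replicate 4 (high), and luc males replicate 3 is highest in Tap1 and Tap2.

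Within groups, H2-Q4 and H2-K1 kept closest to the average of the list. Over the 20 tumours, with values centred within each group, Pearson's r of a gene with the average of the 10, itself included, was highest for H2-Q4 (0.971) and H2-K1 (0.971) and lowest for Tap1 (0.794). For single pairs it was highest between H2-K1 and H2-D1 (0.958) and between B2m and H2-T23 (0.956), and Tap1 and Tap2, neighbours on chromosome 17, reached 0.925. The lowest pair was Tap1 and Tapbp (0.576). B2m lies on chromosome 2 and Nlrc5 on chromosome 8, apart from the 8 other genes on chromosome 17, and their r with the average was 0.955 and 0.915. These values are descriptions, and the libraries share what raises or lowers all genes of a library. Centring within groups also left in the difference between the animal series AL51 and AL54.

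Outside the 10, the genes most like their average were in part copies of them. H2-Q9 (r = 0.943), H2-Q6 and H2-Q8 (0.938 each) and H2-Q5 (0.907) are class I genes, as is the row H2-L (0.905), and the reads of several may be shared with H2-Q7 or H2-D1. The others were Irgm1 (0.942), an interferon-induced GTPase, Ddx58 (0.920), the viral RNA sensor RIG-I, Irf1 (0.911), a transcription factor that binds interferon response elements, Oasl2 (0.909) and Unc93b1 (0.902), which carries Toll-like receptors to endosomes. The median r over the 15453 genes tested was 0.0706. Leaving out luc males replicates 3 and 4, the libraries farthest from the median, left r at 0.864 (H2-Q5) to 0.941 (Irgm1) for the 10 named genes.

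Luc males replicate 3 had the highest heavy chain sum of the tumours, 2068 TPM, and held 37.4 TPM of the 4 leukocyte genes, within the range of the luc tumours. Its macrophage and monocyte sum was 325 TPM, the lowest of the 8 male tumours, and its 5 immunoproteasome genes summed to 610.2 TPM, the highest of the 20 tumours, of which the next had 466 TPM. The other 3 tumours at the top of the class I order held far more leukocyte RNA. In lucOS males, replicates 2 and 4 had heavy chain sums of 1887 and 1771 TPM with 131 and 120 TPM of the leukocyte genes, and luc males replicate 2 had 1822 TPM with 144 TPM. The 20 interferon-induced genes summed to 370.1 TPM in luc males replicate 3 and 238 TPM in luc males replicate 2, against 511 and 434 TPM in lucOS males replicates 2 and 4. Healthy livers had heavy chain sums of 2352 to 2946 TPM with 19.9 to 27.0 TPM of the leukocyte genes and 596 to 852 TPM of the interferon-induced genes.

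**Figure D5:**
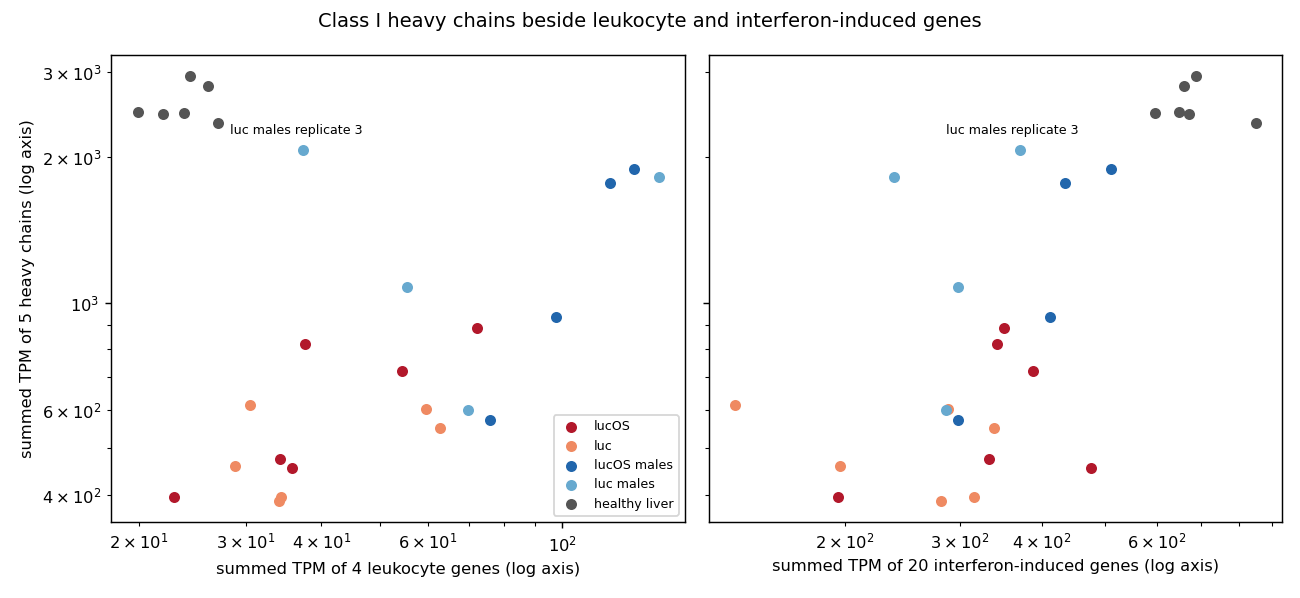
Summed TPM of 5 class I heavy chains in each library against that of 4 leukocyte genes (left) and 20 interferon-induced genes outside class I (right), on log axes, coloured by group. Healthy livers are at the top with 19.9 to 27.0 TPM of leukocyte genes, a range that also holds lucOS replicate 1, and luc males replicate 3 has the highest tumour value, 2068 TPM, with 37.4 TPM of leukocyte genes.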

How the data were processed

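Bulk RNA-seq of 20 liver tumours and 6 healthy livers was used, and the other 30 samples of the series were not analysed here. The authors deposited 1 table of TPM values per gene. Per the submitters' processing notes, the tools include TopHat2, featureCounts and DESeq2 and the build is mm10. Their roles, their versions and whether counting used strand are not stated there. Library totals were 1000000 TPM to within 0.1 without a male label, and off by -3.8 to 256.3 TPM in the 8 male libraries. Of 24063 rows, 27 with names turned into numbers and 2 sharing a name were left out. Symbols were matched to current ones for 23020 genes and to older ones for 902.

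Groups came from the titles. Values were tested as log2(TPM + 1), where the added 1 shrinks fold changes at low TPM. The fits used limma 3.58.1 (trended, robust spread) in R 4.3.3. A minimum of 1 TPM in 4 or more libraries of a fit was required. Called means p under 0.05 after Benjamini-Hochberg adjustment across every gene in the fit. Tumour against healthy liver used all 26 libraries, with equal weight for the 4 tumour groups, and the other comparisons used the 20 tumours. The fits were tested on simulated data with a log2 change of 1 planted in 200 genes that were not low in TPM. Of these, 92% were recovered for tumour against healthy liver and 91% for lucOS against luc over both labels. Between male tumours 72% were recovered, and 60% for the interaction. Smaller changes were not simulated. Intervals are 95%. The 10 genes and the other lists were chosen with earlier results of these data known. From each other list the text names up to 3 genes with the smallest p in tumours against healthy liver and up to 2 in lucOS against luc over both labels, and besides these the 10 genes most like the average. A gene that this rule picks is not reported here. Python 3.11.15 with pandas 2.3.3 and Biopython was used for the promoters. Alternatives were other pseudocounts, filters, scalings, spreads, sample subsets and leaving out each library.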

Additional observations from a re-analysis of the deposited data

How the results depend on the processing

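B2m, H2-K1 and H2-T23 were lower in tumours under all 39 alternatives run. The 10 genes had 5 calls against healthy liver with male tumours alone, against 8. Leaving out 1 library at a time gave 0 to 9 calls for luc males against luc, against 6, and 1 to 7 for lucOS males against lucOS, against 2. The other comparisons called 0 of the 10 under every alternative.

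Some small differences changed sign, and the cause was not tested. In tumours against healthy liver, Tap2 was -0.25 with median ratio scaling, Tapbp 0.25 with male tumours alone, and H2-Q4 0.65 with male tumours alone, 0.083 with AL numbered healthy livers and 0.069 without small RNA genes. H2-K1 over both labels was -0.015 with the animal series as a term, -0.037 with median ratio scaling and -0.041 with quantile normalization. With array weights H2-D1 in males was 0.085, Nlrc5 in males -0.082, Tapbp in lucOS against luc 0.012 and the Nlrc5 interaction -0.20. That interaction was -0.052 with median ratio scaling and -0.048 with quantile normalization, and Tap1 in males was -0.034 with median ratio scaling.

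Leaving out 1 library gave ranges across 0 for these differences. In males they were -0.15 to 0.49 for B2m, -0.46 to 0.18 for H2-K1, -0.37 to 0.32 for H2-D1, -0.24 to 0.52 for Tap1, -0.79 to 0.076 for Tap2 and -0.32 to 0.62 for Nlrc5. Over both labels they were -0.14 to 0.18 for H2-K1, -0.40 to 0.051 for H2-Q4, -0.37 to 0.14 for H2-Q7, -0.32 to 0.12 for Tap2 and -0.084 to 0.38 for Nlrc5. The interaction ran from -0.49 to 0.14 for B2m and -0.47 to 0.46 for Nlrc5, Tapbp in lucOS against luc from -0.17 to 0.048, and H2-Q4 in tumours against healthy liver from -0.15 to 0.078. Between lucOS and luc males, 54 genes were called with all groups in the fit, 0 with those 2 groups alone and 34 with no filter. The share of higher calls in tumours was 81% as deposited, 51.8% with median ratio scaling and 53.2% with quantile normalization.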
